A study of Drosophila melanogaster with 2 samples.

Results

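Kirre, rst, sns and hbs encode a small family of immunoglobulin-type adhesion proteins of the cell surface. In the Drosophila embryo, muscle fibres form when a founder myoblast fuses with fusion-competent myoblasts. Kirre (also called Dumbfounded) sits on founder cells, where Roughest (encoded by rst) can act as well, though it is not limited to them. Sticks and stones (sns) and Hibris (hbs) sit on fusion-competent cells. Binding of these proteins across the cell contact starts fusion. The same family works in the filtration barrier of nephrocytes and in cell sorting in the eye. The 4 genes, of 13945 protein-coding genes on the arms used, were chosen by name as a family, with the high peak count of kirre already known; that count is therefore given as a description, and no test was run on it.

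The measurement was chromatin immunoprecipitation followed by sequencing of CG7786, which is predicted to encode a transcription factor with a basic leucine zipper (bZIP) of the PAR type. All samples were whole embryos of both sexes, 0 to 24 hours old, from 1 transgenic line that carries CG7786 with enhanced green fluorescent protein (eGFP) at its C terminus. The 2 libraries, replicates 2 and 3, form 1 group, so there was no second genotype, age or treatment to compare; which promoter drives the transgene is not stated in the labels. The labels name an antibody against GFP in one field and CG7786 in another. Chromatin was sheared to 200 to 800 bp. A peak in this material can come from any tissue or age, and muscle precursors were not isolated, so the cells that carried a peak were not measured. The number of reads is unknown. Each replicate counts as 1 library, and nothing beyond its label says how separate the embryo collections were.

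Kirre held 14 reproducible peak summits in its span, and rst, sns and hbs held 0. The span is the gene body plus 2000 bp upstream of it, and the summits are those of the authors' list of 4045 peaks that passed the irreproducible discovery rate (IDR) procedure. Over all protein-coding genes, 27.7% held at least 1 such summit. At a distance of up to 2000 bp from a kirre transcription start site (TSS) there were 0 summits.

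The genes differ greatly in size and place. Kirre (FBgn0028369) spans X:2740384-3134532 on the plus strand, a body of 394149 bp with 7 transcripts and 6 TSSs. The rst gene (FBgn0003285, X:2950399-2973834, minus strand, 23436 bp) lies wholly inside the kirre body, so each rst interval is a kirre interval too. The sns gene (FBgn0024189, 2R:8798489-8856091, plus strand, 57603 bp) and hbs (FBgn0287864, 2R:15011396-15042134, plus strand, 30739 bp) lie far apart on another chromosome. Positions are on dm6, counted from 1.

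The 14 kirre summits fell into introns of its canonical transcript, kirre-RF. Intron 2 held 5, intron 3 held 1 and intron 5 held 8, and 0 lay in an exon of any gene. Of the 14, 3 lay within 500 bp of a TSS, all of other genes: 2 at Syx4 and 1 at CG3588. That is 21.4% of the kirre summits, against 55.3% of all IDR summits. A further 9 lay in no other annotated gene and more than 500 bp from every TSS. At any distance, the nearest TSS was a kirre TSS for 6 of the 14 summits and that of another gene for 8. None of the summit windows overlapped an annotated transposable element. Apart from TSS proximity, no share over all IDR summits is given for these counts, so they describe kirre alone.

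Sequences of 200 bases around a summit are shown for 4 of them: the strongest summit in kirre (X:2744142-2744341), the strongest one that lies in no other gene's promoter (X:3097120-3097319), the one window with a bZIP-type motif (X:3007856-3008055), and the window with the most motifs (X:3025571-3025770). They are intronic to kirre, touch no annotated exon, and are the plus strand of the RefSeq Release 6 genome, the dm6 assembly. Capitals mark matches to the motifs searched.
kirre summit 2744241: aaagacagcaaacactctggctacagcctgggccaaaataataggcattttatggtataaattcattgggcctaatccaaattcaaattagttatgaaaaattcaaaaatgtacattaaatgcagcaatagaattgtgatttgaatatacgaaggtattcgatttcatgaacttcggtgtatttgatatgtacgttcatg
kirre summit 3097219: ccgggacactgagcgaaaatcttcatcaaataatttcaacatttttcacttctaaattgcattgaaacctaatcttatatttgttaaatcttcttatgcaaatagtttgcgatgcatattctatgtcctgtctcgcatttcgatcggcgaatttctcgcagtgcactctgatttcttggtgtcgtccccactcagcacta
kirre summit 3007955: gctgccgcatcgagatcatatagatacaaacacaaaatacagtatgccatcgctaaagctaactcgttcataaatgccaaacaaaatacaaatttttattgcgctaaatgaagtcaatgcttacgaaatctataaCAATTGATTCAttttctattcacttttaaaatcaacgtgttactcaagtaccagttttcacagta
kirre summit 3025670: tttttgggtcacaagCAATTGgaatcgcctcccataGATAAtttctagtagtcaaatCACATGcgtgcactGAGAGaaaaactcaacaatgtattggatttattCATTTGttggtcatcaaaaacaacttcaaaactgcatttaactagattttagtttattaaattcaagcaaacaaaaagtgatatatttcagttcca

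The pair of strongest windows hold no match to any of the 11 motifs searched on both strands. The window at 3007955 holds TGANTCA, the AP-1 type of bZIP site, 42 bp past the summit, and it overlaps an E-box (CANNTG, the site of basic helix-loop-helix factors). The window at 3025670 holds GATAA of GATA factors, GAGAG of the GAGA factor, and 3 E-boxes, one of them 7 bp past the summit.

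Over all 14 windows, E-boxes occurred in 9, GAGAG in 2, and GATAA and TGANTCA in 1 each. In the windows of all IDR summits, 60.7% held an E-box, 23.2% GAGAG, 40.2% GATAA and 4.99% TGANTCA. The PAR bZIP type TTANGTAA, the class predicted for CG7786, was in 0 of 14 and in 4.94% of all. The C/EBP type TTGCGCAA, the CRE TGACGTCA, the DRE TATCGATA, the Myc-type E-box CACGTG, the snail type CACCTG and a Mef2-type motif were in 0 as well; between 0.222% and 6.21% of all windows held each of them. The Myc-type and snail-type letters are also matches to CANNTG. In windows of 400 bp, GATAA was in 8 of 14 kirre windows and in 62% of all, and GAGAG in 5 of 14 and in 44.5%. The GATAA count was thus low beside all summits in the narrow window and close to them in the wide one. Median GC content was 35% in the kirre windows (29.5% to 41%) and 37% over all.

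**Figure D1:**
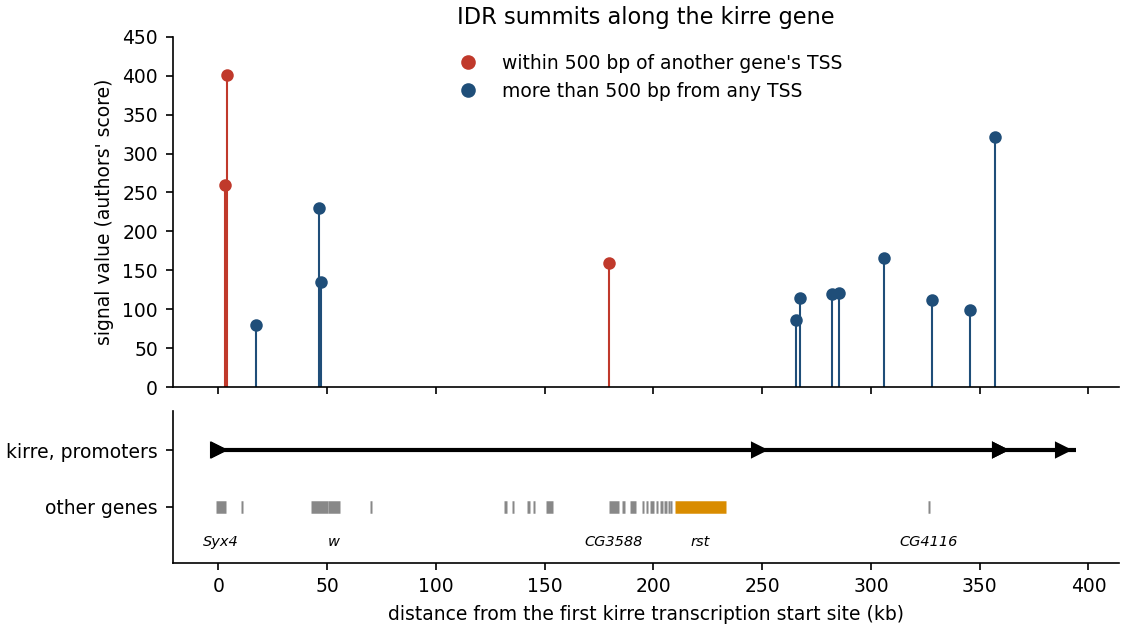
IDR summits along the kirre gene. The horizontal axis is the distance in kb from the first kirre TSS, the height is the signal value the authors gave each peak, arrowheads mark kirre promoters and bars mark other genes; the 8 summits between the kirre-RG and kirre-RC promoters form the densest stretch, and rst lies in a stretch with none.

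Kirre has promoters spread over its body, and the summits were unevenly spread between them. The first pair of TSSs, at 2740384 and 2740805, start the longest transcripts. The kirre-RG promoter lies 248.7 kb further in, kirre-RC and kirre-RD start 359.2 kb in, and kirre-RA starts 388.3 kb in. Between the first promoters and kirre-RG there were 6 summits, or 2.41 per 100 kb. Between kirre-RG and kirre-RC, a stretch of 110.5 kb, there were 8, or 7.24 per 100 kb. The 29.1 kb from kirre-RC to kirre-RA and the 5.9 kb beyond it held 0. For comparison, arm X carried 3.36 summits per 100 kb.

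The stretch from kirre-RG to kirre-RC was also the densest of the 4 in each relaxed list, but the order of the others differed between lists. The relaxed lists hold 30000 entries each, with background, and come from the pool and from each replicate. In the stretch from kirre-RG to kirre-RC they held 40.7 entries per 100 kb in the pool, 32.6 in replicate 2 and 44.3 in replicate 3. In the longer first stretch they held 18.1, 14.9 and 19.7. The stretch from kirre-RC to kirre-RA, with 0 IDR summits, held 20.6, 6.9 and 30.9, above the first stretch in the pool and replicate 3 and below it in replicate 2. It rests on few entries: 6 in the pool, 2 in replicate 2 and 9 in replicate 3. Among the strongest 4045 entries of each replicate, the first stretch held 6 in replicate 2 and 6 in replicate 3, and the stretch from kirre-RG to kirre-RC held 6 and 8. The stretch from kirre-RC to kirre-RA held 0 in both. All stretches were read in the same 2 libraries, and no test was run.

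The first group of summits lies near Syx4, a syntaxin gene that overlaps the kirre 5' end. The summit at 2744241 (peak X:2744106-2744357) had the highest signal in kirre, 401.1, rank 246 of 4045. It lay 165 bp upstream of a Syx4 TSS and 3436 bp from the nearest kirre TSS. Its signal was 143.1 at rank 315 in replicate 2 and 255.4 at rank 210 in replicate 3. The signal value is the authors' score for a peak, on the scale of their caller, and is used here only to order peaks within a list.

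Its neighbour at 2743279 (X:2743178-2743383), 962 bp away, lay 321 bp upstream of the other Syx4 TSS and inside the Syx4 body. It had a signal of 259 and rank 605, with ranks 701 in replicate 2 and 571 in replicate 3. Both therefore ranked high in each library. The summit at 2757602 (X:2757400-2757803) was the weakest of the 14, with a signal of 80.2 and rank 4000. It ranked 3450 in replicate 2 and 4757 in replicate 3, and was 6186 bp from the TSS of the non-coding RNA gene lncRNA:CR43494.

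Further in, a pair of summits 738 bp apart fell inside CG32795, a gene nested in kirre. The one at 2786775 (X:2786695-2786865) had a signal of 230, rank 760, and ranks 728 and 833 in replicates 2 and 3. The one at 2787513 (X:2787311-2787714) had a signal of 134.8, rank 1927, and ranks 2995 and 1700. They lay 2547 and 1809 bp downstream of the nearest CG32795 TSS, farther than 500 bp, so neither counts as promoter-proximal.

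The next summit came only 132.5 kb later, past the eye pigment transporter gene w. It lay at 2919971 (X:2919769-2920172), 148 bp upstream of a CG3588 TSS and inside the CG3588 body, with a signal of 159.9 and rank 1438. Its rank was 2208 in replicate 2 and 1228 in replicate 3. CG3588 was the only 1 of the 21 protein-coding genes wholly inside kirre with a summit within 500 bp of a TSS, against 19.5% of all protein-coding genes. The intervals on either side, 132.5 kb and 86 kb, were the longest between neighbouring summits in kirre. The longer one held 19 entries in the pooled relaxed list, the best at rank 4482. Of 4039 intervals in the genome, 170 (4.21%) were at least as long, but this interval was picked as the longest in kirre. The share is therefore a description, not a test. The median interval was 14.6 kb in kirre and 11.4 kb over all.

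The 8 summits between kirre-RG and kirre-RC had no other gene's promoter within 500 bp. Their strongest was at 3097219 (X:3097122-3097318), with a signal of 320.6 and rank 407, and it lay closest to a kirre promoter, 2331 bp upstream of the kirre-RC TSS. Its signal was 134.4 at rank 353 in replicate 2 and 189.5 at rank 431 in replicate 3. Of all 14 it was the second strongest, after the summit near Syx4.

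The other 7 in that stretch had signals of 86.2 to 166.1. The summit at 3046137 (X:3045935-3046338) led them with 166.1, rank 1356, and ranks 910 and 1715 in replicates 2 and 3. It was 21345 bp from the nearest TSS, that of CG4116. The summit at 3068503 (X:3068301-3068704) also had CG4116 as its nearest gene, 941 bp away, with a signal of 111.6 and rank 2532, and ranks 3288 and 2394 in the replicates. These were the 2 of the 8 whose nearest TSS was not a kirre TSS.

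The remaining 5 lay between 13557 and 36619 bp from a kirre TSS. Signals were 86.2 at 3005929 (X:3005727-3006130), 113.9 at 3007955 (X:3007753-3008156), and 119.1 at 3022589 (X:3022387-3022790). They were 120.5 at 3025670 (X:3025468-3025871) and 98.9 at 3085993 (X:3085791-3086194). All 5 were below the median of the IDR list, 130.1. In replicate 2 they ranked 4192, 2782, 3953, 2094 and 5450, in the order given, and in replicate 3 they ranked 3769, 2573, 1872, 2587 and 2409. Replicate 3 ranked 4 of the 5 higher than replicate 2 did, and 3025670 was the exception.

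As a set the kirre peaks were of ordinary strength. Their median signal was 127.7, against 130.1 over all IDR peaks, whose quartiles were 98.4 and 196.1 and whose highest value was 2909.3. Of the 14, 7 were above the median of all and 4 were above the upper quartile. Widths ran from 171 to 404 bp, and 10 had the highest width. A much stronger peak, at rank 3 with a signal of 2571.9, lay at the promoter of Ugalt, a nucleotide sugar transporter gene, 36.5 kb before kirre. At the other end, a peak at X:3134527-3134930 starts in the last bases of kirre. Its summit lay 197 bp after the kirre body and 141 bp upstream of the TSS of N, which encodes the receptor Notch. The peak had a signal of 124.4 and rank 2160, and its summit is outside the kirre span.

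**Figure D2:**
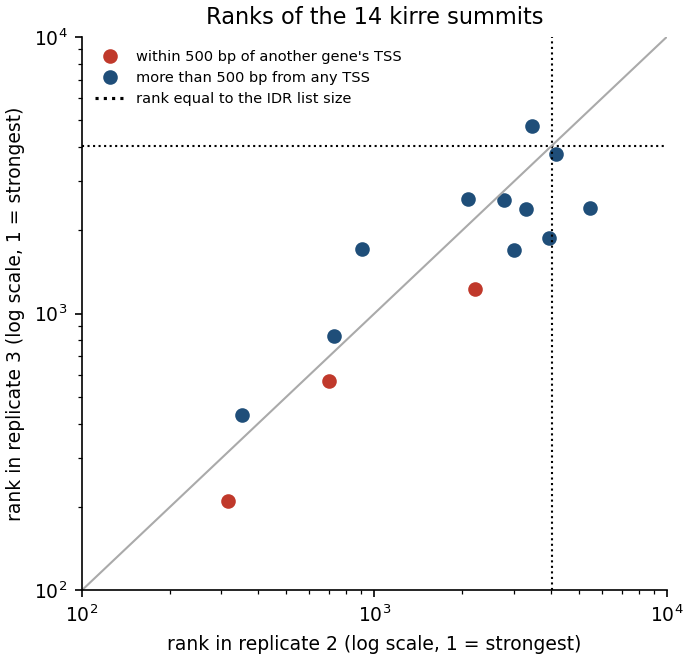
Rank of each of the 14 kirre summits in the relaxed list of replicate 2 (horizontal) and replicate 3 (vertical), both on log scales with 1 the strongest; dotted lines are at rank 4045. Of the 14 points, 11 lie inside both lines and 9 lie below the diagonal, ranked higher in replicate 3.

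The replicates gave all 14 summits at similar ranks. A summit of the IDR list counted as repeated when an entry lay within 200 bp of it. All 14 had one in each replicate. Within the top 4045 of each replicate list, 11 of 14 (78.6%) had one in both, against 77.5% of all IDR summits. Replicate 2 gave 12 and replicate 3 gave 13. The 3 that missed were 2757602 (rank 4757 in replicate 3), 3005929 (4192 in replicate 2) and 3085993 (5450 in replicate 2). The median fold difference in rank between replicates was 1.38 in kirre and 1.38 over 4019 IDR peaks with an entry in both. It reached 2.26 in kirre, and 9 of the 14 ranked higher in replicate 3. The IDR list was made from these same libraries, so the repeat also reflects how the list was chosen.

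The threshold of the IDR list falls in the range of kirre's weaker peaks. The weakest member inside was 2757602, with a signal of 80.2 and rank 4000. Just outside were 2985387 (74.8, rank 4363), 2788778 (73, rank 4482) and 2861164 (64.9, rank 5265), all in kirre. The first of these, 3664 bp upstream of the kirre-RG TSS, ranked 9910 in replicate 2 and 3305 in replicate 3, so the libraries differ on it more than on any of the 14.

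Kirre's own promoters were weak in every list. Within 500 bp of the TSS at 2740805, the pooled relaxed list had an entry with a signal of 27.5 at rank 19928. The replicates ranked it 27289 and 23405. At the kirre-RG TSS the pooled entry ranked 24585, with 1 at rank 19656 in replicate 2 and none in replicate 3. At kirre-RC the entries ranked 26196, 16983 and 22892 in the pool and replicates 2 and 3. No list had an entry within 500 bp of the TSSs at 2740384 and 3128639. None of these entries came near the IDR list, whose last peak has a signal of 79.5.

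The rst gene, on the opposite strand inside kirre, lies in the 86 kb interval between summits. Its span held 9 entries in the pool, 9 in replicate 2 and 5 in replicate 3, or 35.4, 35.4 and 19.7 per 100 kb; the relaxed lists held 22.4 per 100 kb of the genome. The best was at X position 2951651 in exon 8, far from the promoter, with a signal of 39.9 at rank 10620 in the pool. The replicates ranked it 13428 and 13171. At the rst TSS itself, 53 bp away, an entry had a signal of 32.4 at rank 15076, with ranks 26919 and 14702 in replicates 2 and 3.

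Of the genes without an IDR summit, sns came nearest to the list. Its best entry lay 229 bp from its TSS, with a signal of 56.2 at rank 6408 of the pool, against 79.5 at the end of the IDR list. The best entry within 500 bp of the TSS ranked 5665 in replicate 2 and 9665 in replicate 3. In all, the sns span held 12 entries in the pool, 11 in replicate 2 and 4 in replicate 3. These were 20.1, 18.5 and 6.7 per 100 kb, each below the genome's 22.4. Sns is the adhesion receptor that fusion-competent cells need to fuse.

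Hbs, the paralogue of sns, had no entry within 500 bp of its TSS in any list. Its best one, in intron 1 at 15030346, had a signal of 33.2 at rank 14462, with ranks 26877 and 17047 in replicates 2 and 3. Its span held 7, 7 and 10 entries in the pool and replicates 2 and 3. These were 21.4, 21.4 and 30.5 per 100 kb, beside 22.4 for the genome. By the best pooled entry the order was kirre, sns, rst and hbs. The order of rst and hbs did not hold in the single libraries. There the best rank in the span was 9500 for rst and 9487 for hbs in replicate 2, and 13171 and 11053 in replicate 3.

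**Figure D3:**
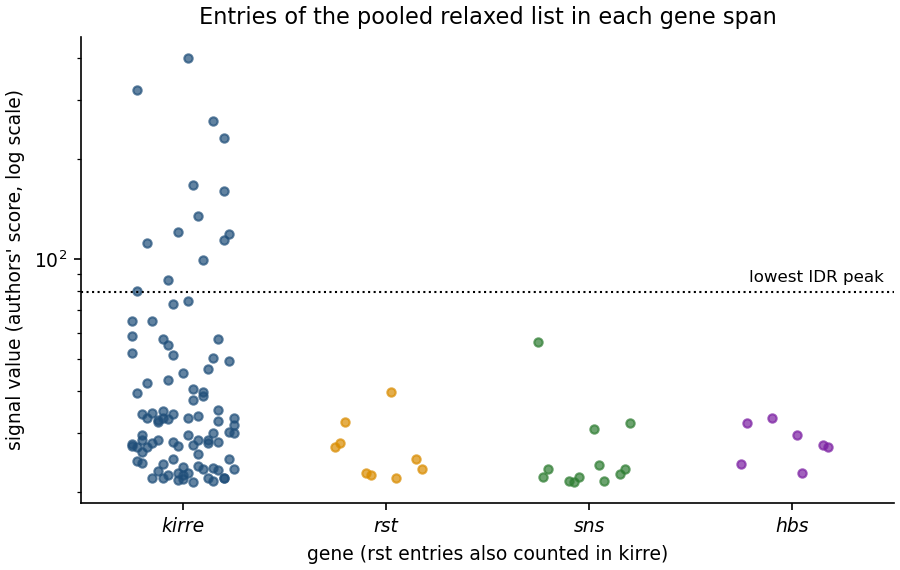
Signal value (log scale) of each entry of the pooled relaxed list in the span of each gene; the dotted line is the weakest IDR peak, and points are spread sideways for sight only. Only kirre has points above the line, 14 of them, and the highest sns point, at 56.2, is the closest of the other 3 genes.

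The kirre count is to be read beside the gene's length. Kirre is the fifth longest protein-coding gene, and its span would hold 13.33 summits at the density of arm X, against the 14 seen (3.53 and 3.36 per 100 kb). Away from TSSs kirre held 11 summits, where the arm's density gives 7.12. For rst, sns and hbs, the density of their arms gives 0.86, 1.71 and 0.94, against 0 seen. Genes of 0.8 to 1.25 times their length held a summit in 51.1% of cases for rst (207 of 405), 51.3% for sns (97 of 189) and 52.4% for hbs (174 of 332).

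Among the 83 protein-coding genes of at least 100 kb, 47 (56.6%) held a summit. Kirre was first by count and 10th by density, with 3.55 per 100 kb of body against a median of 0.8. The next by count were CG1677 with 12, Svil, a supervillin gene, with 7, dnc, which encodes a cyclic AMP phosphodiesterase, with 7, and Eip75B, a nuclear receptor gene, with 6, a count that jing, shep and sick share. The 4 genes longer than kirre, Myo81F, Pzl, lovit and CG17684, held 0 each. By distance in log10 body length and log10 (summits + 1), the genes most like kirre were dnc at 0.461, Ten-a at 0.495 and CG1677 at 0.504. Ten-a, a teneurin adhesion gene, held 4 summits in 291.5 kb.

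**Figure D4:**
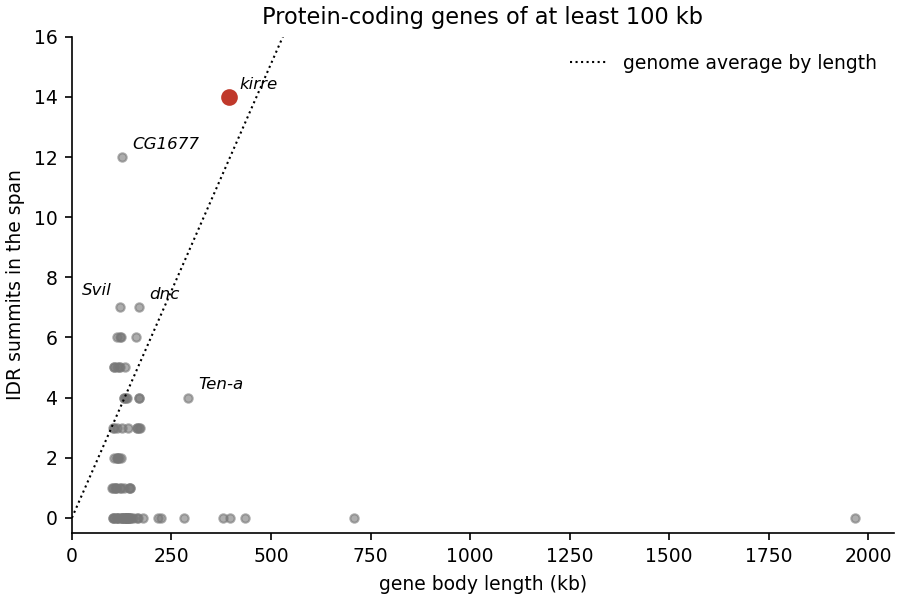
IDR summits in the span (vertical) against gene body length in kb (horizontal) for the 83 protein-coding genes of at least 100 kb; the dotted line is the genome average of 3.02 summits per 100 kb. Kirre, with 14 summits, lies close to the line, and the 4 longer genes have 0.

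A list of 26 genes drawn up around myoblast fusion, called the fusion list here, was also counted, and all were matched in the annotation. The role of each gene in fusion was not checked, and the list includes more general genes such as the junction gene pyd. Of these, 14 (53.8%) held an IDR summit in the span and 10 (38.5%) within 500 bp of a TSS, beside 27.7% and 19.5% of all protein-coding genes. The bodies of the list are longer, with a median of 6932.5 bp against 2166 bp, and the list was not matched on length. Median strength of the best summit was 149 in the list and 149 over all genes with one.

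Of the listed factors taken to carry the adhesion signal to actin, several had promoter summits. Others, among them Ced-12, Rac1, Crk, blow, Vrp1, SCAR and Arpc1, held no IDR summit in the span. The mbc gene, whose product activates Rac, had one at rank 312 with a signal of 359.5, ranks 433 and 255 in the replicates. It lies 152 bp from the mbc TSS but 8 bp from that of Nup98-96, a nucleoporin gene. Arp3, of the actin-branching Arp2/3 complex, had rank 360 (336.8), 204 bp from its TSS and 73 bp from that of msk. Hem, of the Wave complex, had rank 507 (286.9), 346 bp from its TSS and 124 bp from that of IleRS. In all 3 the neighbouring gene's TSS was the nearer one.

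Other promoter summits lay closer to the named gene. Rac2, a Rac GTPase, had one 8 bp from its TSS at rank 1914, with ranks 1049 and 3253 in the replicates. The adaptor dock had one at 12 bp (rank 2028), the actin regulators WASp at 72 bp (1577) and Abi at 21 bp (2652), and the kinase Pak at 206 bp (2110). The junction gene pyd had one at 224 bp (1230) and one at 64 bp (1824). Mef2, the muscle transcription factor, had one 13 bp from a TSS at rank 2041.

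The strongest summit of the list was also in the Mef2 span, at rank 17 with a signal of 1380.9, but it was 126 bp from the TSS of Pal1 and 1094 bp from that of Mef2. In the other 4 genes with a summit, rols, siz, lmd and jeb, it lay farther than 500 bp from their own TSSs. In rols, which encodes the adaptor that binds the tail of Kirre in founder cells, there were 3, the strongest with a signal of 146.4 at 580 bp upstream. No IDR summit lay in the spans of Ced-12, Rac1, Crk, Arf6, blow, Vrp1, SCAR, Arpc1, sing, Alk, twi or CadN. The body of CadN alone is 131.3 kb.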

How the data were processed

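Chromatin immunoprecipitation was sequenced in 2 libraries of 1 group, whole embryos with CG7786-eGFP. The dm6 peak lists were used; the dm3 lists were not, and no coordinate was converted. Per the text deposited with each library, the authors called relaxed lists of peaks from each replicate and the pool against 1 control alignment, and derived the IDR list from them. Which aligner, caller, IDR threshold and versions they used is not stated in the labels or that text. The control alignment was not used here, and the depth is unknown, so no interval was computed. The signal value per peak is the authors' deposited score, used to rank peaks within a list. The deposited −log10 q-value, which was the same for every peak of the IDR list, was not used for ranking. The IDR list holds the 4045 strongest of the 30000 pooled entries.

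Genes and transcripts came from Ensembl release 115, and sequence from the RefSeq Release 6 genome, the assembly of dm6. Summits were assigned to spans (gene body plus 2000 bp upstream), to the nearest TSS (proximal within 500 bp), and to replicate entries within 200 bp. Steps ran in Python 3.11.15 with NumPy 2.4.6, SciPy 1.17.1 and matplotlib 3.10.9. On simulated data, only the counting of summits per span and the search for the GATAA motif were tested. The members, lists and motifs were chosen with earlier results of these data known. The genes named are the 4 members, the genes at their summits, the fusion genes with a proximal summit or among the 5 with the strongest summit, the 5 long genes with most summits and the 3 genes most like kirre; neighbours, ties, longer genes and other fusion genes were named after their values were seen. With 1 group there was no comparison to test. Alternatives were the strongest 2022 peaks of the IDR list, other windows and spans, and each replicate left out.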

Additional observations from a re-analysis of the deposited data

How the results depend on the processing

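Of 56 alternative values for 21 results, 46 kept their value within the bounds set and 10 moved. Counts that changed by less than 1.5 times were kept, such as fusion list genes falling from 14 to 10 in the strongest 2022 peaks. A 0 for rst, sns or hbs could not change in those peaks or with the gene body alone, so these kept values are no check. In the strongest 2022 peaks of the IDR list, kirre held 7 summits, 1 summit lay nearest to its own TSS where 6 did, and the density was 1.776 per 100 kb of the kirre body. With the gene body alone, 8 genes of the fusion list held a summit. The share of all protein-coding genes with a summit was 16.7% with the strongest 2022 peaks, 11% with the gene body alone and 35.2% with 5000 bp upstream. In windows of 400 bp, 8 kirre windows held GATAA, 5 GAGAG and 2 the snail type. Leaving out a replicate, by taking the top 4045 of the other list, gave 12 to 14 kirre summits, 0 for rst, sns and hbs, 3 TSS-proximal summits, 4 to 7 nearest to their own TSS, a density of 3.045 to 3.552, and 13 to 15 fusion genes. No paired analysis was possible because there is only 1 group. Unknown depth limits what the absence of a peak shows: sns, rst and hbs had no summit in this list, which does not show that CG7786 is absent there.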
